A study of Mus musculus with 12 samples.

Results

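The comparison set the 4 arrays titled Pax5+/- preleukemic precursor B-cells (arrays 1 to 4) against the 4 arrays titled WT pro-B cells (arrays 5 to 8), which are 8 of the 12 arrays in the series. The members were chosen by title alone, and every transcript cluster with a gene symbol was tested, 23410 of 28944. Clusters with a single symbol named 19938 genes, and a gene was represented by its brightest cluster. All arrays, the 4 of Cd72+/-;Pax5+/- included (arrays 9 to 12), hold total RNA from pro-B cells purified from bone marrow. The mice were 1 month old and kept free of specific pathogens. The Pax5+/- group carried a single intact copy of Pax5 and no change of Cd72 per its labels, and the WT group carried neither change. The sources used here give neither the build of the mutant allele nor the strain, sex or number of mice. No label ties an array to an animal of its own, so a p-value here reflects array-to-array spread alone, part or all of which may be technical.

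Pax5 is the paired-domain transcription factor that commits lymphoid precursors to the B lineage. It switches on genes of the B cell, such as those of the pre-B-cell receptor, and holds down genes of the myeloid, T and progenitor programmes. It acts beside Ebf1, Tcf3 and Ikaros-family factors in pro-B cells, the stage at which the antibody heavy chain gene is assembled. Loss of a single copy of PAX5 is a frequent lesion of human B-cell acute lymphoblastic leukaemia, and Pax5+/- mice are used as a model of carriers before leukaemia.

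The pro-B markers were bright in both groups. The 11 pro-B markers measured had WT means from 9.5 to 12.79 on the log2 scale, and the brightest was Igll1, a chain of the surrogate light chain. Ebf1 and Cd93, an early B-cell surface protein, were higher in Pax5+/- (Cd93 by 1.27) and Cd79a was lower. The mean of the 11 was 11.87, 10.98, 11.90 and 10.95 on WT arrays 5 to 8 and 11.63 to 11.75 on the Pax5+/- arrays, so WT arrays 6 and 8 stood lowest. T-cell, neutrophil, megakaryocyte and endothelial markers averaged 5.67 to 6.06 on the 8 arrays, near the low end of the signal range. None of these lists and none of the monocyte, stromal or pre-B and mature B lists had a called member, and limma gave none of their members an unadjusted p under 0.05 either. In the pre-B and mature B list Il2ra was as bright as the pro-B markers, with means of 11.665 in WT and 11.72 in Pax5+/-. The other 4 markers measured in that list had WT means under 6. The stromal markers were bright and uneven inside both groups. Their mean was 8.34, 7.75, 8.37 and 7.74 on WT arrays 5 to 8 and 8.39, 7.27, 8.46 and 7.32 on Pax5+/- arrays 1 to 4. Single markers of other cells passed the test: Nkg7 (NK cells), Sdc1 (plasma cells) and Ccr9 (plasmacytoid dendritic cells) were higher in Pax5+/-, and Aqp1 (erythroid) was lower. The part of such cells in the results was not tested. The calls of Nkg7, Sdc1, Ccr9 and Aqp1 were lost when the close pairs of arrays, described below, were averaged. Those of Ebf1, Cd93 and Cd79a were lost as well. In RNA of a cell population, fewer cells of a type and less RNA per cell cannot be told apart.

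The arrays of each group fell into close pairs. Over clusters, the SD of the difference was 0.109 between WT arrays 5 and 7, 0.117 between WT arrays 6 and 8, and 0.270 to 0.280 for any other WT pair. It was 0.177 between Pax5+/- arrays 1 and 3 and 0.122 between arrays 2 and 4, against 0.195 to 0.281 for the others. Component 1 of a principal component analysis took up 49.0% of the variance and placed the 4 Pax5+/- arrays at 15.1 to 19.5. It placed WT arrays 5 and 7 at -6.8 and -6.0 and WT arrays 6 and 8 at -29.0 and -29.4. The WT pairs therefore lay about as far from each other on that axis as the nearer WT pair lay from Pax5+/-. Counts treat the 4 arrays as replicates, and calls are also given with each close pair averaged to 1 value. That fit also averaged pairs of Cd72+/-;Pax5+/- arrays and left 3 residual degrees of freedom. Those pairs were less distinct: the SD was 0.117 for arrays 9 and 10, 0.125 for 11 and 12, and 0.128 for 10 and 11. The averaged fit called 282 clusters, and 34 without that group.

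**Figure D1:**
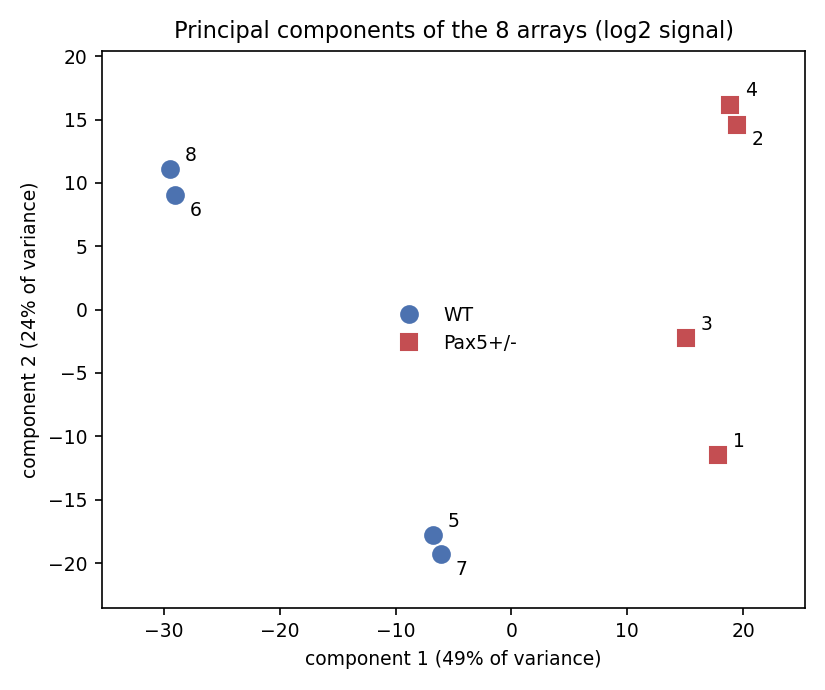
Principal components of the 8 arrays from their log2 signals, with component 1 (49.0% of variance) across and component 2 (24%) up. Each point is an array with its number, circles are WT and squares are Pax5+/-; the 4 Pax5+/- arrays sit at 15.1 to 19.5 on component 1, and the WT arrays sit in a pair of close pairs at lower values.

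With every array as a replicate, 1483 of 19938 genes passed the test (7.44%), 839 of them higher in Pax5+/- (4.21%) and 644 lower (3.23%). The call was limma's p below 0.05 after Benjamini-Hochberg adjustment. Among clusters the count was 1749 of 23410 (7.47%), with 1001 higher (4.28%) and 748 lower (3.2%). Most of the changes were small: 833 of the called genes moved by under 0.5 on the log2 scale, 457 by 0.5 to 1 and 193 by over 1, which is 2-fold. These 193 genes (0.968% of all) held 125 rises (0.627%) and 68 falls (0.341%). Among clusters 220 were past 2-fold (0.94%), 144 higher (0.615%) and 76 lower (0.325%). The threshold named in the study's text, an unadjusted p under 0.05 with over 2-fold, passed 224 clusters (0.957%) and 197 genes (0.988%). The median change over all genes was -0.0075. With the close pairs averaged, 237 genes (1.19%) and 282 clusters (1.2%) passed, and each of these clusters was also among the calls with every array. Of the 193 genes past 2-fold, 119 were called both ways. Of the 40 genes past 4-fold, 28 higher and 12 lower, 34 were called both ways. In 59 genes the lowest Pax5+/- array exceeded the highest WT array by over 2-fold (0.296%), and in 28 genes the order was the opposite (0.14%). Among clusters these numbers were 67 (0.286%) and 31 (0.132%). The groups did not overlap in 2131 genes (10.7%) and 2506 clusters (10.7%).

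**Figure D2:**
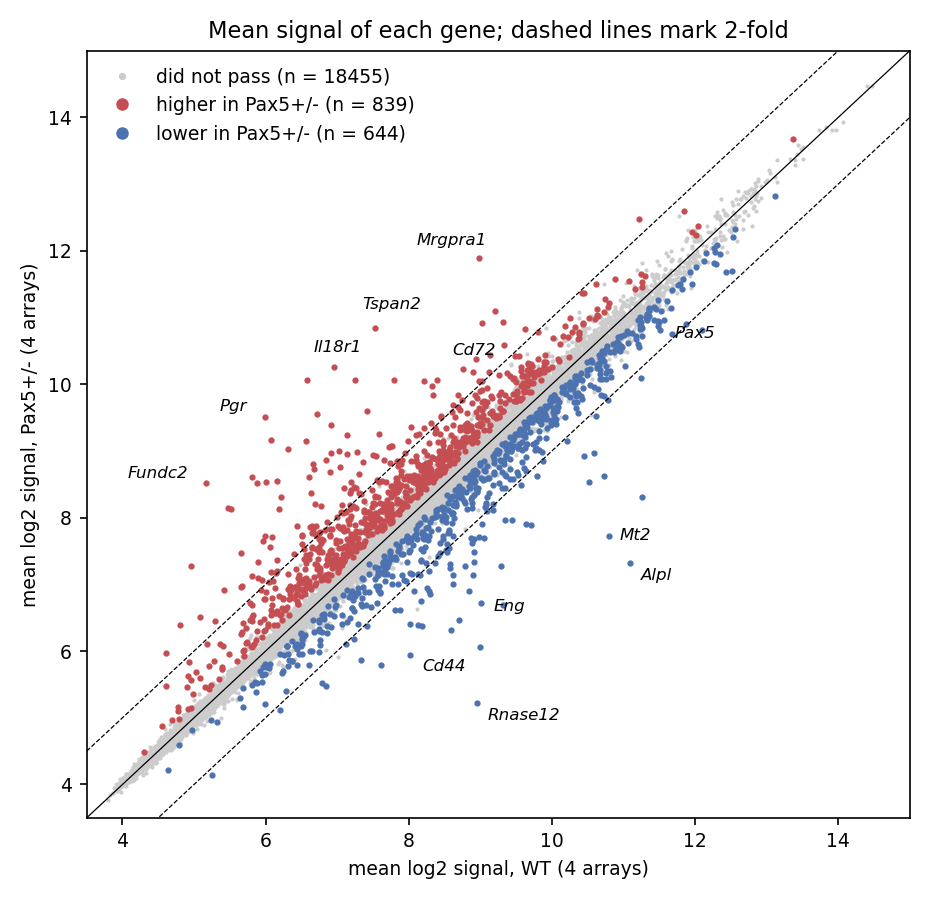
Mean log2 signal of each of 19938 genes in WT (across, 4 arrays) and Pax5+/- (up, 4 arrays), with red for the 839 genes that were higher, blue for the 644 that were lower and grey for those that did not pass. The solid line marks equal signal and the dashed lines 2-fold; 125 red and 68 blue genes lie past 2-fold, Pgr and Fundc2 far above and Alpl and Rnase12 far below.

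To show the letters beside the values, the promoters of the called genes past 2-fold, with no overlap between groups, that hold a Pax5 core word are printed here, from RefSeq's GRCm38.p6. Each window runs from 250 bases before the annotated start to 50 after it, 5′ to 3′ on the gene's strand. Capitals mark the word GCATGAC or GCGTGAC or its reverse complement.
Cyp2j9 promoter, chr4:96591436-96591735, minus strand: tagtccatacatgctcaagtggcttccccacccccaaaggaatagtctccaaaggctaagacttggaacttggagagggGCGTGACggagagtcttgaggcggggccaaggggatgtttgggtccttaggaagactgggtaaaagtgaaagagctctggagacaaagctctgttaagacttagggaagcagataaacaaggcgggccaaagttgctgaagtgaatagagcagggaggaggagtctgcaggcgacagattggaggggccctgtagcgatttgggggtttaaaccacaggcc
Stum promoter, chr1:180483455-180483754, minus strand: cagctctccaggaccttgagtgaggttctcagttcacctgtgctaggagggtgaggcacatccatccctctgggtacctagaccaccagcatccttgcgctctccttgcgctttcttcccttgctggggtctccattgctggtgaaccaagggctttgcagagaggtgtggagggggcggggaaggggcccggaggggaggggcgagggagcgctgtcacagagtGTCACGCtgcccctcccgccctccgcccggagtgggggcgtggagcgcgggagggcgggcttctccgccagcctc
Nr4a1 promoter, chr15:101266596-101266895, plus strand: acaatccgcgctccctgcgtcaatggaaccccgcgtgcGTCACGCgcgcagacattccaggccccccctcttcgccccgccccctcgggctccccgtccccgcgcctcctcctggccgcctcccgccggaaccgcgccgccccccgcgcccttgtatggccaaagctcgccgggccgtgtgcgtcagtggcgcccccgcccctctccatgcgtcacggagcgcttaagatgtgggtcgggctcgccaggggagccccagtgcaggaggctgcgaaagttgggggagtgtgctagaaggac
Cep85 promoter, chr4:134187036-134187335, minus strand: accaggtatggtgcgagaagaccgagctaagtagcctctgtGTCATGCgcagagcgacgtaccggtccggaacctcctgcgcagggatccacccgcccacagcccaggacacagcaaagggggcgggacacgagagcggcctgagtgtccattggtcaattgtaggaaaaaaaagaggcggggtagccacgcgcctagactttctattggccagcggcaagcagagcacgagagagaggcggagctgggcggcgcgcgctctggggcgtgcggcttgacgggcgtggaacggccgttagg
Pla2g4a promoter, chr1:149922390-149922689, minus strand: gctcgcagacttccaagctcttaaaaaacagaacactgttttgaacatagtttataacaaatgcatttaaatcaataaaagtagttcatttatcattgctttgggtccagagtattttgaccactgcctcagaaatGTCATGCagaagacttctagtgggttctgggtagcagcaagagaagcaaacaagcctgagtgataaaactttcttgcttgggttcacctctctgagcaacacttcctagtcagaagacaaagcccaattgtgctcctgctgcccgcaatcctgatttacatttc
Edaradd promoter, chr13:12520401-12520700, minus strand: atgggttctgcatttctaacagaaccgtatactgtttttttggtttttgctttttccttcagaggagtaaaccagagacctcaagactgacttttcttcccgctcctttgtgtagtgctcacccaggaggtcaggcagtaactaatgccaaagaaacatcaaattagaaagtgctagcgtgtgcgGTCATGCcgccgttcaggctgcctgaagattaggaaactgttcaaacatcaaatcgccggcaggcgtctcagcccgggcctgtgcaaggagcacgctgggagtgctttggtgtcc

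The word stood 171 bases before the start in Cyp2j9 and 65 before it in Edaradd, and it was read on the reverse strand in all but Cyp2j9. A gene may have several annotated promoters, and the window shown is the one with the word. Cyp2j9, an arachidonate-metabolising cytochrome P450, read 5.93, 5.92, 5.99 and 6.02 in WT and 7.65, 7.65, 7.62 and 7.71 in Pax5+/- (1.69, SE 0.0645). Stum read 8.70, 8.20, 8.75 and 7.91 in WT and 10.04, 10.07, 9.88 and 10.25 in Pax5+/- (1.67), and Nr4a1 is described with the immediate-early genes. In these 3 genes every Pax5+/- array was higher. Cep85, a centrosomal protein, read 8.97, 9.16, 8.89 and 9.10 in WT and 7.78, 7.96, 7.89 and 7.97 in Pax5+/- (-1.13). Pla2g4a, the phospholipase that frees arachidonate, read 9.06, 8.17, 8.95 and 8.32 in WT and 7.44, 6.91, 7.36 and 6.88 in Pax5+/- (-1.48). Edaradd, an adaptor of the ectodysplasin receptor, read 8.90, 8.53, 9.10 and 8.62 in WT and 7.14, 7.35, 7.25 and 7.37 in Pax5+/- (-1.51). In these 3 every Pax5+/- array was lower, so the word stood in promoters of genes of either direction. Only Pla2g4a lost its call with the pairs averaged (adjusted p = 0.16).

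Pax5 itself was lower in Pax5+/-. It read 11.40, 11.72, 11.49 and 11.66 on WT arrays 5 to 8 and 10.65, 11.15, 10.87 and 11.21 on Pax5+/- arrays 1 to 4. The groups did not overlap, and the gap between the nearest arrays was 0.19. The difference was -0.60 on the log2 scale (SE 0.114, adjusted p = 0.0051), a signal 1.51-fold lower. With the close pairs averaged the call was lost (adjusted p = 0.29). Which part of Pax5 the mutant allele lacks, and whether the probes cover it, is not known here, so the signal checks the labels only in part. Cd72, an inhibitory co-receptor of B cells encoded near Pax5 on chromosome 4, moved the other way. It read 9.29, 8.49, 9.39 and 8.43 in WT and 10.26, 10.27, 10.03 and 10.19 in Pax5+/-, a rise of 1.29 (SE 0.192, adjusted p = 0.00083; 0.17 with pairs averaged). In the Cd72+/-;Pax5+/- arrays Pax5 averaged 11.2 (SD 0.0835) and Cd72 7.51 (SD 0.135).

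Other genes around Pax5 changed by less than Cd72. Of 33 measured genes near it on chromosome 4, 5 rose and 1 fell (18.2%, beside 7.44% of all genes), with a median change of 0.05. After Cd72, the risers were the glucosylceramidase Gba2 (0.30), Hint2 (0.28), the carbonic anhydrase Car9 and Zbtb5. Sit1, an inhibitory adaptor of lymphocyte receptors, read 8.74, 8.59, 8.69 and 8.61 in WT and 8.24, 8.38, 8.09 and 8.01 in Pax5+/-. It fell by 0.48 and its call held with the pairs averaged (adjusted p = 0.046), as no other call in this group did. Chromosome 4 as a whole had 63 rises and 47 falls among 1154 genes (9.53%), the highest share of the 20 chromosomes, and chromosome 5 had the lowest (5.88%).

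Among the genes with the largest rises, WT signal ran from low, as in Pgr, to bright, as in Mrgpra1. Pgr, the progesterone receptor, read 6.13, 6.04, 5.85 and 5.96 on WT arrays 5 to 8 and 9.36, 9.71, 9.31 and 9.64 on Pax5+/- arrays 1 to 4. Every Pax5+/- array stood over 3 log2 units above every WT array. The rise was 3.51 (SE 0.0944, adjusted p = 3.1e-10), or 11.4-fold. In the Cd72+/-;Pax5+/- arrays Pgr averaged 5.99 (SD 0.0981). Of 34 nuclear receptors 4 rose and 1 fell, where 7.44% of all genes were called. The other rises were Nr4a1 (1.06), the orphan receptor Nr2c1 (0.78) and Esr1, the oestrogen receptor alpha (0.46). Rxra fell by 0.25, and the glucocorticoid receptor Nr3c1, with means of 9.73 in WT and 9.71 in Pax5+/-, did not pass. Pgr, Nr4a1 and Nr2c1 were also called with the pairs averaged.

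Il18r1, the ligand-binding chain of the interleukin-18 receptor, read 7.27, 6.68, 7.19 and 6.68 in WT and 9.99, 10.46, 9.95 and 10.66 in Pax5+/-. It rose by 3.31 (SE 0.173, adjusted p = 8.4e-08). Its signalling partner Il18rap stood higher in WT, at 9.76, 8.91, 9.67 and 8.95, and read 10.90, 10.96, 11.00 and 10.90 in Pax5+/-. Both receptor chains were thus higher on all 4 Pax5+/- arrays, with Il18rap up by 1.62 (adjusted p = 3.6e-05; 0.068 with pairs averaged). The other 14 measured genes of the interleukin-1 and interleukin-18 family did not pass, where 7.44% of all genes were called. Among them was the adaptor Myd88, with means of 9.44 and 9.20. In Cd72+/-;Pax5+/- Il18r1 averaged 6.59 (SD 0.0974).

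Other receptors and membrane proteins rose as steeply. Tspan2, a tetraspanin, read 8.12, 7.01, 8.03 and 6.94 in WT and 10.76, 11.02, 10.60 and 10.99 in Pax5+/- (change 3.32, SE 0.236). Nrp1, the neuropilin that binds semaphorins and VEGF, read 6.41, 6.15, 6.60 and 6.07 in WT and 9.04, 9.15, 8.73 and 9.21 in Pax5+/- (2.73, SE 0.127). Adgre5, the adhesion receptor CD97, read 5.99, 5.64, 5.87 and 5.76 in WT and 8.48, 8.90, 8.27 and 8.78 in Pax5+/- (2.79, SE 0.119). In all 3 the nearest arrays of the groups were over 2 log2 units apart, and the WT spread of Tspan2 followed the close pairs of arrays. Mrgpra1, a Mas-related receptor best known from sensory neurons, was already bright in WT at 9.45, 8.5, 9.47 and 8.51 and reached 11.75, 11.85, 11.93 and 12.04 (2.91, SE 0.203). Its chromosomal neighbours Mrgpra3 (0.30) and Mrgpra4 (0.23) rose as well from means near 5, and both calls were lost with the pairs averaged. The other 15 measured members of that family did not pass, where 7.44% of all genes were called. Probes of close paralogs may share targets, and this was not tested.

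Among the tetraspanins 4 of 23 rose (17.4%, beside 4.21% of all genes) and none fell; the others were Tspan32 (0.49), Tspan3 (0.42) and Tspan31 (0.38), and only Tspan2 was called with the pairs averaged. Of 29 integrins, selectins and other homing molecules 2 rose and 1 fell, a share of 10.3% near the 7.44% of all genes. Itga5, a chain of the fibronectin receptor, read 7.23, 6.70, 7.07 and 6.62 in WT and 8.61, 8.71, 8.62 and 8.79 in Pax5+/-, a rise of 1.78 (adjusted p = 5.7e-07). Itgam, the myeloid integrin CD11b, rose by 0.89 with a call that was lost with the pairs averaged. Cd44, the hyaluronan receptor, read 8.00, 7.99, 8.08 and 7.99 in WT and 6.09, 5.96, 6.05 and 5.68 in Pax5+/-. It fell by 2.07 (SE 0.0789, adjusted p = 4.8e-09) from a WT level that hardly varied, and averaged 8.79 (SD 0.0733) in Cd72+/-;Pax5+/-. Itga4 and Cd47, the brightest members, had differences of -0.06 and 0.11 that did not pass.

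Fundc2, a protein of the mitochondrial outer membrane encoded on chromosome X, read 4.90, 5.14, 5.08 and 5.57 in WT and 8.92, 8.27, 8.43 and 8.48 in Pax5+/-. The change was 3.35 (SE 0.156, adjusted p = 3.7e-08), from a WT signal near the bottom of the range. Hmces, which shields abasic sites in single-stranded DNA, rose from 6.49 to 6.67 in WT to 8.92 to 9.36 (2.58, SE 0.104). Frmd4b, a scaffold protein with a FERM domain, rose by 3.08 (SE 0.107), and Atrnl1, a relative of attractin, by 2.63 (SE 0.0659). Trav14-1, a variable segment of the T-cell receptor alpha chain, read 5.95, 6.93, 6.18 and 7.26 in WT and 9.95, 9.98, 10.14 and 10.19 in Pax5+/- (3.48, SE 0.225). It was the only one of 9 measured T-cell receptor segments to rise, and Trav13-5 fell by 0.29, where 7.44% of all genes were called. The call of Trav13-5 was lost with the pairs averaged. The T-cell marker genes Cd3e, Cd3d, Cd3g, Cd4 and Cd8a did not pass. Near-identical alpha segments may share the probes of Trav14-1, and this was not tested.

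**Figure D3:**
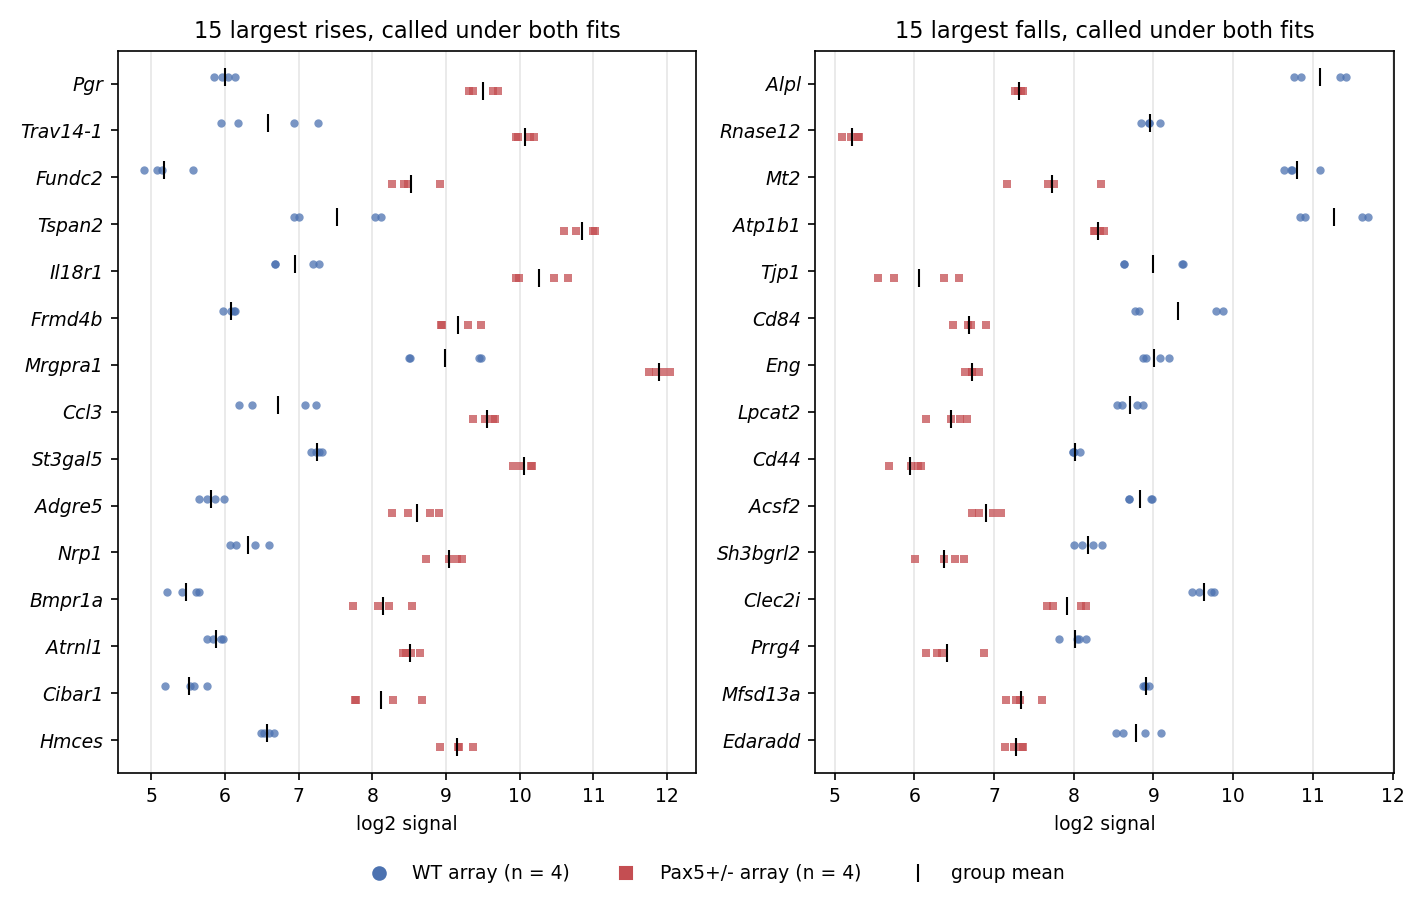
Log2 signal of the 15 genes with the largest rises (left) and the 15 with the largest falls (right) among genes called with every array and with the close pairs averaged. Each circle is a WT array, each square a Pax5+/- array (n = 4 each) and each bar a group mean. The genes were also chosen for having no overlap between the groups.

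The largest falls were in genes that WT cells showed at moderate to high signal. Alpl, the tissue-nonspecific alkaline phosphatase, read 10.76, 11.34, 10.85 and 11.42 in WT and 7.26, 7.34, 7.30 and 7.37 in Pax5+/-. It fell by 3.77 (SE 0.133, adjusted p = 3.0e-09), or 13.7-fold. Osteoblasts also make Alpl, and the part of such cells in this fall was not tested. Rnase12, a member of the ribonuclease A family, read 8.95, 9.08, 8.95 and 8.85 in WT and 5.31, 5.20, 5.09 and 5.29 in Pax5+/- (-3.73, SE 0.0727, adjusted p = 2.4e-11). Its Pax5+/- signal lay near the low end of the range. Its relative Rnase11 fell by 0.37, with a call that was lost with the pairs averaged. The other 9 of 11 measured family members did not pass, where 7.44% of all genes were called. In Cd72+/-;Pax5+/- Rnase12 averaged 5.21 (SD 0.122) and Alpl 8.85 (SD 0.142).

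Mt2, a metal-binding metallothionein, read 10.64, 11.09, 10.74 and 10.72 in WT and 8.34, 7.75, 7.68 and 7.16 in Pax5+/- (-3.06, SE 0.196). Its neighbour Mt1, with means of 11.01 and 10.5, did not pass. Mt2 was the only called member of 22 metallothioneins and zinc transporters, where 7.44% of all genes were called. Atp1b1, the beta subunit of the sodium pump, read 10.90, 11.69, 10.84 and 11.62 in WT and 8.33, 8.27, 8.25 and 8.38 in Pax5+/- (-2.95, SE 0.166). The alternative beta subunit Atp1b3 was brighter, at means of 12.28 and 12.52, and did not pass. Within the 24 pumps and channels 2 rose and 4 fell (25%, beside 7.44% of all genes). Kcnk6, a potassium leak channel, rose by 1.73 (adjusted p = 1.5e-07), and Kcnk5 of the same family fell by 0.74.

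Tjp1, the tight junction scaffold ZO-1, read 8.63, 9.37, 8.63 and 9.36 in WT and 6.56, 5.74, 6.37 and 5.55 in Pax5+/- (-2.94, SE 0.233). Cdh17 (-0.51) and Tjp3 (-0.27) fell too among 23 junction genes (13%, beside 3.23% of all genes lower), none of which rose, while the catenins Ctnnb1 and Ctnna1 did not pass. Cd84, a Slam-family receptor that binds itself on neighbouring cells, read 9.79, 8.77, 9.87 and 8.82 in WT and 6.90, 6.71, 6.67 and 6.48 in Pax5+/- (-2.62, SE 0.222). Its chromosomal neighbours were lower too: Cd48, the ligand of Cd244, by 1.75 and Slamf1 by 0.27. Slamf1 was dim, with means of 5.24 in WT and 4.97 in Pax5+/-, and its groups overlapped (adjusted p = 0.049). Cd244a rose by 0.64, so the Slam family had 1 rise and 3 falls among 12 genes (33.3%, beside 7.44% of all genes). Only Cd84 of the family was called with the pairs averaged. Smaller falls in the named set were Lpcat2, an enzyme of phospholipid remodelling (-2.25), the acyl-CoA synthetase Acsf2 (-1.93), Clec2i, a lectin ligand of NK receptors (-1.72), Sh3bgrl2 (-1.80), Prrg4 (-1.60) and Mfsd13a (-1.57).

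The transcription factors of the B lineage moved in both directions and mostly by under 2-fold. Of 30 measured, 5 rose and 6 fell (36.7%, beside 7.44% of all genes), with a median change of -0.05. The list was chosen with results of these data known, and no call in it held with the pairs averaged. Ebf1, Pax5's partner in B-cell commitment, read 12.05, 11.90, 12.09 and 11.81 in WT and 12.18, 12.31, 12.25 and 12.37 in Pax5+/-, a rise of 0.32 (SE 0.0645, adjusted p = 0.0082). Irf4, which limits pre-B-cell proliferation, rose by 0.55, the E protein Tcf12 by 0.41, Ikzf3 (Aiolos) by 0.37 and Id2, an inhibitor of E proteins, by 0.38. Spib, an Ets factor of B cells, read 9.15, 8.85, 9.13 and 8.79 in WT and 7.38, 8.02, 7.37 and 8.07 in Pax5+/- and fell by 1.27 (SE 0.156, adjusted p = 0.00018). Bcl11a (-0.59), Id3 (-0.56), the E protein Tcf3 (-0.48) and Erg (-0.40) fell as well. Tcf3 and Tcf12, which can form the same kind of E-protein dimers, thus changed in opposite directions. Myb and Pou2af1 did not pass.

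Genes that Pax5 is known to activate did not fall together. Of 21 measured, 5 rose and 4 fell (42.9%, beside 7.44% of all genes), with a median of -0.05. Bst1, an ADP-ribosyl cyclase of B-cell precursors, read 9.73, 8.78, 9.73 and 8.89 in WT and 7.08, 7.43, 7.29 and 7.30 in Pax5+/-, a fall of 2.01 (adjusted p = 2.4e-05; 0.056 with pairs averaged). Cd79a, the signalling chain of the pre-B-cell receptor, read 12.64, 12.51, 12.56 and 12.44 in WT and 12.19, 12.37, 12.09 and 12.19 in Pax5+/-, a fall of 0.33. Spib and Id3 were the other falls. The risers were Adgre5, Cd72, the protease Capn2 (0.80), Irf4 and Ikzf3, of which Adgre5 and Capn2 were also called with the pairs averaged. Blnk, the adaptor below the pre-B-cell receptor, had means of 11.56 and 11.62 and did not pass.

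Genes that Pax5 is known to repress tended upward. Of 19 measured, 7 rose and 2 fell (47.4%, beside 7.44% of all genes). The median was 0.34, beside -0.0075 for all genes. This list too was chosen with results of these data known. Ccl3, an inflammatory chemokine of myeloid cells, read 7.09, 6.37, 7.24 and 6.19 in WT and 9.53, 9.67, 9.36 and 9.64 in Pax5+/- (2.83, SE 0.191, adjusted p = 9.2e-07). Flt3, the cytokine receptor of early progenitors, read 9.18, 8.81, 9.17 and 8.75 in WT and 9.95, 10.18, 9.94 and 10.13 in Pax5+/- (1.07, SE 0.099, adjusted p = 1.5e-05; 0.052 with pairs averaged). Cd33 (0.92) and Fcgr3, a low-affinity Fc receptor (0.80), rose too, as did Cd244a (0.64), Lilrb4a (0.42) and the T-cell co-receptor Cd28 (0.40). Ccl3 and Fcgr3 held with the pairs averaged. The falls were Xbp1 (-1.06), the driver of secretory capacity, and Grap2 (-0.67), an adaptor of T-cell signalling. Notch1, whose means were 10.03 and 10.06, did not pass. None of the 4 monocyte and 5 neutrophil markers passed: Csf1r, the receptor of macrophage growth factor, had means of 6.61 and 6.63 and the neutrophil gene Elane 5.79 and 5.79.

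Calls in the pre-B-cell receptor list were mostly falls, in its signalling parts. Igll1 and Vpreb1, the surrogate light chain genes, had differences of 0.14 and 0.28 that did not pass. Of 27 measured genes 1 rose, the adaptor Lat2 (0.39), and 4 fell (18.5%, beside 7.44% of all genes). Prkcb, the protein kinase C that links the receptor to NF-kB, read 11.45, 11.10, 11.42 and 11.03 in WT and 9.91, 10.24, 10.01 and 10.21 in Pax5+/- (-1.16, SE 0.101, adjusted p = 9.0e-06). It was the member whose call held with the pairs averaged (adjusted p = 0.045). The adaptor Bank1 fell by 1.26 and the kinase subunit Pik3cd by 0.54. Ighm, the heavy chain of IgM, read 8.81, 8.38, 8.81 and 8.33 in WT and 7.22, 7.27, 7.42 and 7.33 in Pax5+/-, a fall of 1.27 (adjusted p = 4.5e-06; 0.034 with pairs averaged). Igha, the constant region of IgA, moved the other way, from 6.92 to 8.10 in WT to 8.86 to 9.03 in Pax5+/- (1.44; adjusted p with pairs averaged 0.23). Of 11 immunoglobulin segments measured 4 rose and 1 fell (45.5%, beside 7.44% of all genes).

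Inhibitory co-receptors and phosphatases had 5 rises and 1 fall among 20 (30%, beside 7.44% of all genes), with a median of 0.10. Beside Cd72, the adaptor Dok3 rose from 9.14 to 9.86 in WT to 10.21 to 10.70 in Pax5+/- (0.94), the sialic acid receptor Cd22 by 0.39 and the phosphatase Ptpn6 (SHP-1), which binds such receptors, by 0.31. Btla fell by 0.41. None of these 6 calls held with the pairs averaged. The phosphatase Inpp5d and the Fc receptor Fcgr2b did not pass.

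Enzymes that attach or edit sialic acid changed on both sides. Of 26 measured, 4 rose and 3 fell (26.9%, beside 7.44% of all genes). St3gal5, the synthase of the ganglioside GM3, read 7.27, 7.16, 7.32 and 7.23 in WT and 10.17, 10.15, 9.91 and 10.02 in Pax5+/-, a rise of 2.82 (SE 0.0624, adjusted p = 5.9e-11). Siae, which removes acetyl groups from sialic acid, read 5.86, 5.80, 5.97 and 5.93 in WT and 7.34, 7.36, 7.25 and 7.40 in Pax5+/- (1.45, adjusted p = 7.0e-09). St3gal1, which caps O-glycans, read 8.84, 9.17, 9.07 and 9.15 in WT and 7.54, 7.84, 7.71 and 7.72 in Pax5+/- (-1.35, adjusted p = 6.5e-07). These 3 were tight within groups and held with the pairs averaged. Cmah, which hydroxylates the sialic acid precursor, rose by 2.18 and St6gal1, which makes the ligand of Cd22, by 0.71, both with WT values that followed the close pairs. St3gal4 (-0.36) and St6galnac3 (-0.31) fell.

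The TGF-beta and BMP family had 5 rises and 1 fall among 28 (21.4%, beside 7.44% of all genes), with a median of 0.00. Among the receptors, Bmpr1a, a type I receptor of BMPs, read 5.65, 5.21, 5.61 and 5.41 in WT and 8.54, 8.07, 8.23 and 7.73 in Pax5+/- (2.67, SE 0.144, adjusted p = 1.1e-07). The activin receptor Acvr2b rose by 0.46. Endoglin (Eng), a co-receptor of the family, read 8.87, 9.08, 8.91 and 9.19 in WT and 6.73, 6.81, 6.72 and 6.64 in Pax5+/- (-2.29, SE 0.0849, adjusted p = 4.4e-09). Receptor and co-receptor thus moved in opposite directions. None of the 4 endothelial markers was called, and the part of endothelial cells in the fall of Eng was not tested. Among the ligands, Tgfb2 rose by 1.09 and Tgfb3 by 1.26, while Tgfb1, the brightest at means of 10.98 and 10.92, did not pass. Smad7, the inhibitory Smad induced by the pathway, read 8.25, 8.14, 8.23 and 8.23 in WT and 9.90, 10.31, 9.83 and 10.15 in Pax5+/- (1.84, adjusted p = 4.0e-08). Bmpr1a, Smad7, Tgfb2 and Eng held with the pairs averaged.

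Among genes of pattern recognition and inflammatory cell death, rises outnumbered falls. Of 27 measured, 8 rose and 2 fell (37%, beside 7.44% of all genes). With the pairs averaged, 5 rises and 1 fall held. Mlkl, the executor of necroptosis, read 6.16, 6.19, 6.26 and 6.14 in WT and 8.28, 8.03, 8.20 and 8.02 in Pax5+/- (1.95, SE 0.0633, adjusted p = 1.6e-09). Ripk3, the kinase that activates Mlkl, read 7.72, 7.85, 7.93 and 7.85 in WT and 8.66, 8.61, 8.52 and 8.51 in Pax5+/- (0.74, adjusted p = 2.1e-06). Both necroptosis genes were called with the pairs averaged. Nlrp3, a sensor of the inflammasome, rose by 1.07, Naip2 by 0.85, Naip5 by 0.63, the pore-forming Gsdmd by 0.58, the adaptor Pycard by 0.24 and the protease Casp1 by 0.74. The rises of Naip5, Pycard and Casp1 lost their calls with the pairs averaged. Naip2, Naip5 and Naip6 are neighbours on chromosome 13 and close paralogs, so their probes may share targets, which was not tested. Tlr7, the receptor of single-stranded RNA, read 6.94, 6.79, 6.93 and 6.72 in WT and 5.54, 5.33, 5.5 and 5.52 in Pax5+/- (-1.37, adjusted p = 9.0e-08). Aim2, the sensor of cytosolic DNA, fell by 0.67.

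**Figure D4:**
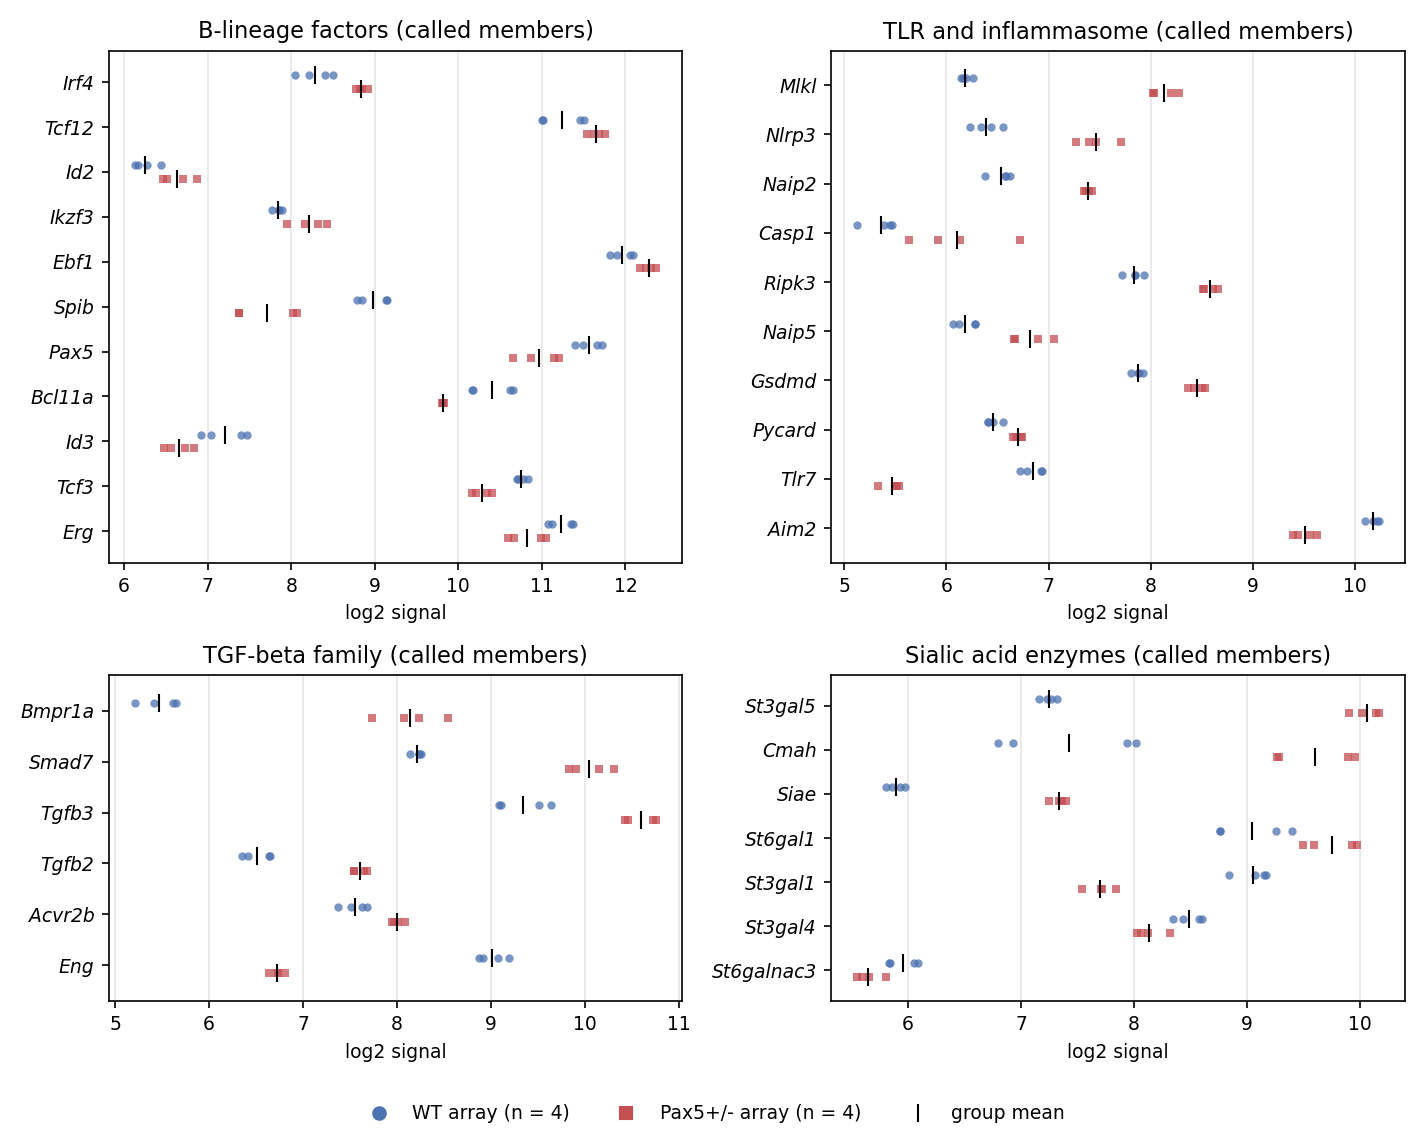
Log2 signal of every called member of 4 lists (B-lineage factors, Toll-like receptors and inflammasome, TGF-beta family, sialic acid enzymes), with circles for WT arrays, squares for Pax5+/- arrays (n = 4 each) and bars for group means. Changes of the B-lineage factors are mostly under 1 log2 unit, while Mlkl, Tlr7, Bmpr1a, Smad7, Eng, St3gal5, Siae and St3gal1 show groups that lie over 1 unit apart in their means.

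Immediate-early genes, which answer to acute signals, had 8 rises and no fall among 22 (36.4%, beside 4.21% of all genes higher). Their median was 0.17. Nr4a1, a nuclear receptor induced by antigen-receptor signals, read 8.66, 8.60, 8.68 and 8.54 in WT and 9.52, 9.87, 9.51 and 9.83 in Pax5+/- (1.06, SE 0.0857, adjusted p = 4.4e-06), and it alone held with the pairs averaged. Fosb rose by 0.74, Zfp36 by 0.56, Jun by 0.55, Klf4 and Cd69 by 0.54 each (0.535 for both before rounding), Fos by 0.38 and Ier5 by 0.23. Myc read 10.10, 11.86, 10.12 and 11.83 in WT and 10.92, 11.01, 10.81 and 11.03 in Pax5+/-. Its WT pairs differed by over 1.7 log2 units and enclosed the Pax5+/- values, and it did not pass.

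Genes of the cell cycle fell where they changed. Among 25 cyclins and cell-cycle inhibitors 5 fell (20%), among 30 replication genes 5 (16.7%) and among 29 mitotic genes 4 (13.8%). None of these genes rose, and 3.23% of all genes were lower. Ccnd1, cyclin D1, read 9.16, 9.51, 9.16 and 9.57 in WT and 8.21, 7.81, 8.18 and 7.67 in Pax5+/- (-1.38, adjusted p = 1.6e-05; 0.050 with pairs averaged, just past the threshold). Cdkn2a, which encodes the inhibitors p16Ink4a and p19Arf and is often deleted in B-cell leukaemia, read 9.26, 9.32, 8.69 and 9.09 in WT and 8.00, 8.05, 8.16 and 8.19 in Pax5+/- (-0.99, adjusted p = 0.00013; 0.021 with pairs averaged). Rrm2, a subunit of ribonucleotide reductase, fell by 0.91 (adjusted p = 1.5e-05; 0.046 with pairs averaged). E2f2 (-0.91), Ccnd3 (-0.49) and Ccne1 (-0.43) fell, as did the helicase subunit Mcm4 (-0.22) and Top2a (-0.28). Mki67, the proliferation marker, had means of 12.82 and 12.68, and Cdk6 12.79 and 12.82, and neither passed. The median of the replication list was -0.18 and of the mitotic list -0.13, beside -0.0075 for all genes.

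Secretory and metabolic genes mostly fell where they changed. Of 25 genes of the unfolded protein response and secretion 2 rose and 6 fell (32%, beside 7.44% of all genes). The median was -0.35. Xbp1 read 9.70, 10.71, 9.74 and 10.68 in WT and 9.47, 8.95, 9.31 and 8.87 in Pax5+/-, while Ern1, the sensor that splices its mRNA, rose by 0.66. Hspa5 and Hsp90b1 read near 11.6 to 11.8 on Pax5+/- arrays 2 and 4 and near 12.3 to 12.5 on arrays 1 and 3, and did not pass. Of 26 genes of cholesterol and fatty acid metabolism 5 fell (19.2%, beside 3.23% of all genes lower). Abca1, the cholesterol exporter, read 9.11, 8.05, 9.14 and 8.07 in WT and 6.29, 6.26, 6.44 and 6.25 in Pax5+/- (-2.28, adjusted p = 2.3e-05; 0.059 with pairs averaged), and the fatty acid elongase Elovl6 fell by 1.29. In glycolysis 1 of 24 genes rose, the insulin receptor Insr (1.02), and 4 fell, led by Pfkp (-0.59). In all 20.8% were called, beside 7.44% of all genes. Amino acid transport and response had 4 falls of 24 (16.7%, beside 3.23% of all genes lower), the largest in Mthfd2 (-0.75) and Trib3 (-0.64). No call in these 4 lists held with the pairs averaged. Of 17 hypoxia genes 4 rose (23.5%, beside 4.21% of all genes) and none fell. The prolyl hydroxylase Egln3 read 5.54 to 5.73 in WT and 6.92 to 7.01 in Pax5+/- (1.31, adjusted p = 9.2e-09). Its call held with the pairs averaged, and those of Kdm3a (0.32), Car9 (0.27) and Mxi1 (0.22) did not.

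Signalling below growth and death receptors shifted gene by gene. Of 26 genes of PI3K, Akt and Foxo signalling 2 rose and 5 fell (26.9%, beside 7.44% of all genes). Inpp4b, a phosphatase of PI3K products, read 7.44, 7.23, 7.34 and 7.33 in WT and 5.84, 5.86, 5.91 and 5.84 in Pax5+/- (-1.47, SE 0.0476, adjusted p = 1.6e-09) and held with the pairs averaged. Pik3r5 (-0.81) and Sgk1 (-0.71) fell, and Pik3ip1, an inhibitor of the kinase, rose by 0.83. Of 30 genes of the TNF and NF-kB group 5 fell (16.7%, beside 3.23% of all genes lower) and none rose. The death ligand Tnfsf10 fell most (-1.01). The interleukin-7, Kit and Flt3 list had 1 rise (Flt3) and 1 fall (Ccnd3) among 22. Its share of 9.09% was near the 7.44% of all genes. Il7r read 12.47, 11.12, 12.44 and 11.07 in WT and 12.54, 12.52, 12.58 and 12.48 in Pax5+/-, so WT arrays 5 and 7 were close to Pax5+/- and arrays 6 and 8 over 1 unit lower, and it did not pass. Ras and MAPK dampeners had 3 rises of 26 (11.5%, beside 4.21% of all genes), led by Rgs2 (1.31). None of the 3 held with the pairs averaged. In the Bcl2 family the pro-death Bcl2l11 (-0.71) and the pro-survival Bcl2l1 (-0.63) both fell, and neither call held with the pairs averaged. Bcl2l11 read 8.94, 9.77, 8.85 and 9.83 in WT, which followed the close pairs, and 8.49 to 8.78 in Pax5+/-. The other measured members, Mcl1 and Bak1 among them, did not pass.

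Genes of interferon and antigen presentation also split. Of 32 interferon-response genes 1 rose and 5 fell (18.8%, beside 7.44% of all genes). Samhd1, which depletes nucleotides against viruses, read 8.23, 7.71, 8.22 and 7.96 in WT and 9.18, 9.49, 9.34 and 9.43 in Pax5+/- (1.33, adjusted p = 4.1e-06) and held with the pairs averaged, and Gbp3 fell by 0.94. In the Ifi200 family, whose members are close paralogs, 1 of 8 rose, Ifi208 (0.68), and 2 fell, Aim2 and Ifi202b. Its share of calls was 37.5%, beside 7.44% of all genes, and no call held with the pairs averaged. The DNA-binding Ifi202b read 7.03, 8.15, 7.27 and 8.00 in WT and 6.41, 5.5, 6.03 and 5.25 in Pax5+/- (-1.81). Lgmn, a lysosomal protease of antigen processing, read 9.25, 8.90, 9.24 and 8.73 in WT and 10.92, 10.94, 10.89 and 10.94 in Pax5+/- (1.89, adjusted p = 9.7e-08). In the class II list H2-Oa rose by 0.40 and H2-Eb2 fell by 0.30, while H2-Ob and Rfx5 did not pass. In the class I list Tap1, a peptide transporter, rose by 0.58, H2-T10 rose (0.335) and Calr fell (-0.445). B2m and Canx did not pass. Among these antigen-presentation genes only the call of Lgmn held with the pairs averaged. Of 24 chemokines and their receptors 2 rose, Ccl3 and the receptor Ccr9 (0.51), and 2 fell, the lymphocyte receptors Ccr7 (-0.89) and Cxcr5 (-1.26). In all 16.7% were called, beside 7.44% of all genes. Of the calls in this list, that of Ccl3 alone held with the pairs averaged. Cxcr4, the homing receptor of precursors, had means of 11.42 and 11.57 and did not pass.

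Among 31 genes of B-cell acute leukaemia 3 rose and 6 fell (29%, beside 7.44% of all genes). Flt3, Cdkn2a, Pax5 and Tcf3 above were among them. In the stem-cell list Pbx3 rose by 1.41 (adjusted p = 1.8e-07) and held with the pairs averaged, while its partner Meis1 fell by 0.67. Dnmt3a, a DNA methyltransferase, read 8.58, 8.60, 8.66 and 8.72 in WT and 9.34, 9.57, 9.49 and 9.61 in Pax5+/- (0.86, adjusted p = 2.5e-06; 0.017 with pairs averaged), Tet2 rose by 0.50 and Dnmt1 fell by 0.39. In the Notch and T-lineage list Dtx4 rose by 0.88, and Hes1 (-0.55) and the adaptor Lat (-0.68) fell, Lat with the pairs averaged too. Some lists had a share of calls near or below that of all genes. V(D)J recombination and end joining had 1 fall of 19, Rad50 (-0.23), and the recombinase gene Rag1, with means of 11.24 and 11.32, did not pass. No gene of 26 in the DNA damage and p53 list passed limma's test, and 6 had an unadjusted p under 0.05. None of 25 genes of oxidative phosphorylation passed, and none had an unadjusted p under 0.05. Heat-shock (1 rise of 11), circadian clock (1 fall of 16) and Myc targets (2 rises of 29, both Myc antagonists, Mxd4 and Mxi1) added few calls. Of 54 small nucleolar and Cajal body RNAs 5 rose (9.26%, beside 4.21% of all genes) and none fell, and none of the 5 calls held with the pairs averaged.

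**Figure D5:**
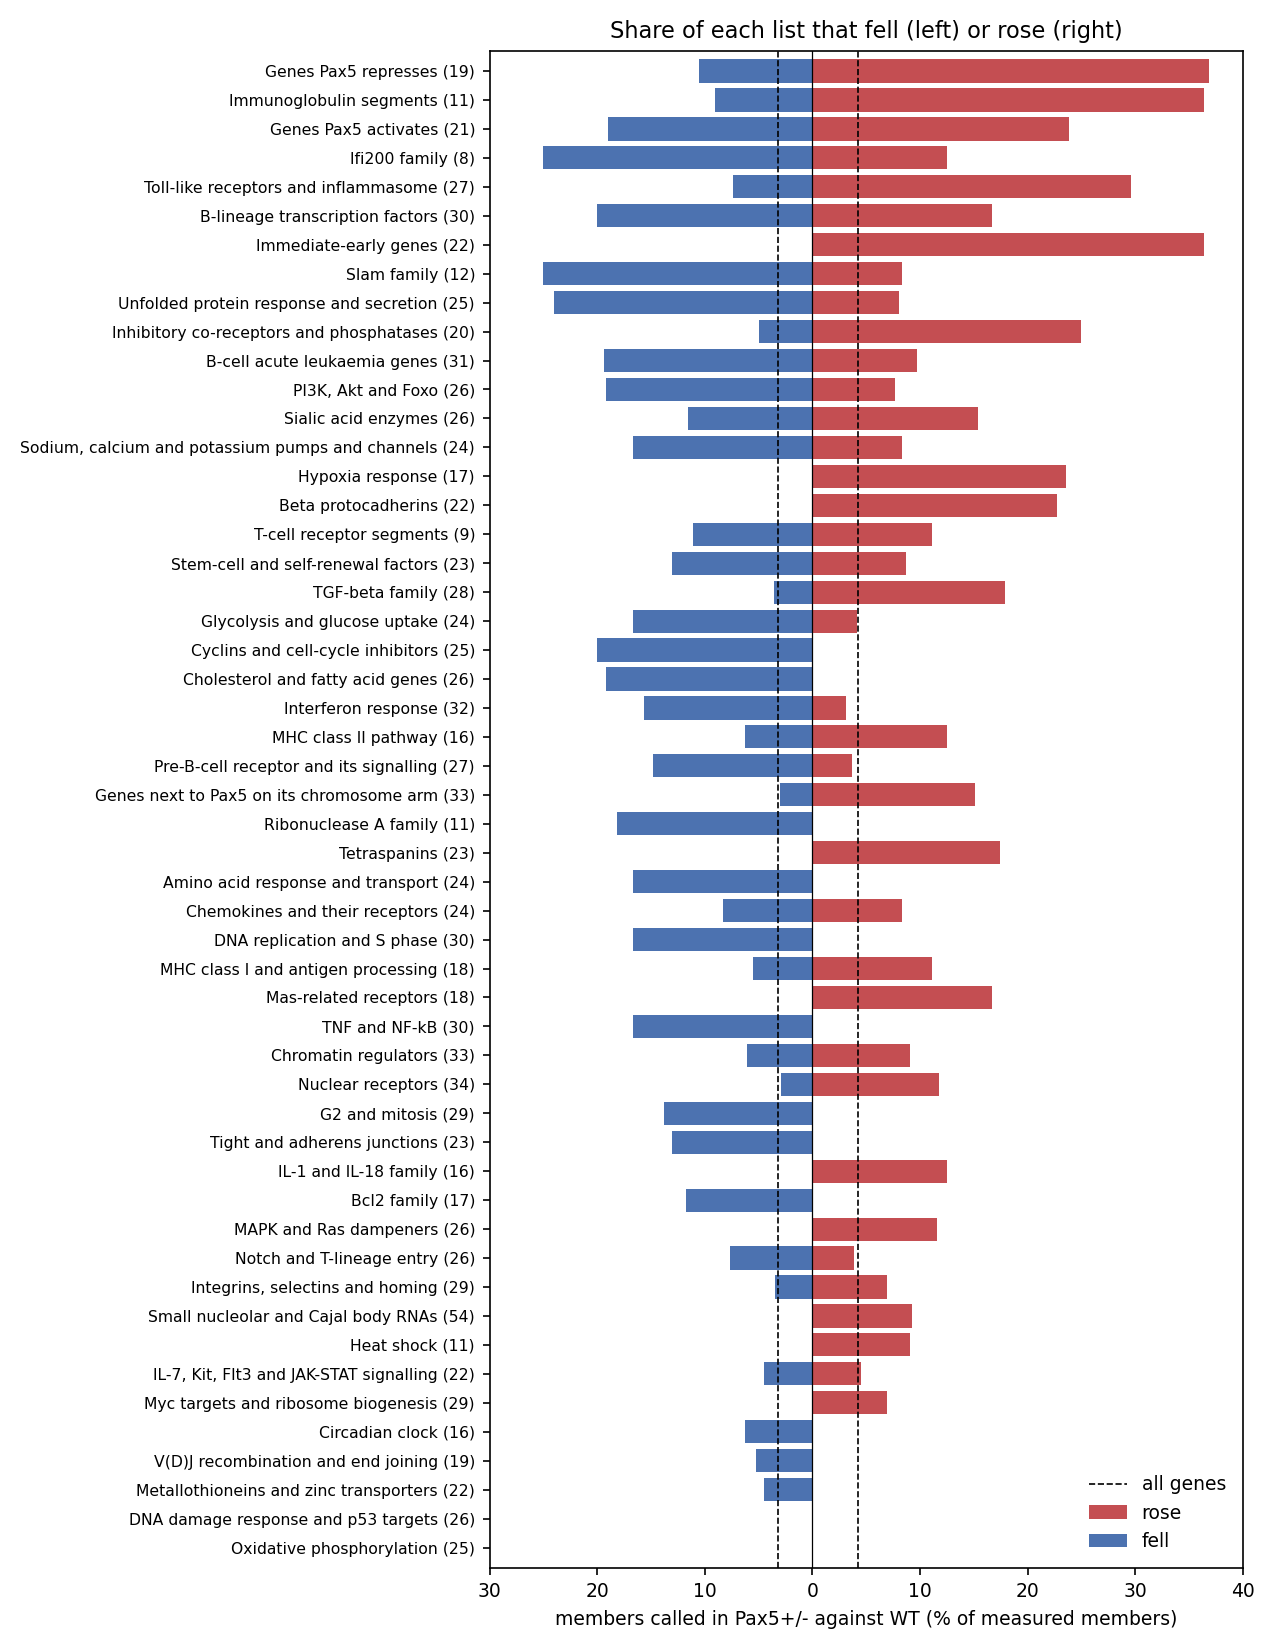
Share of measured members (number in brackets) of each list that fell (blue, left) or rose (red, right) in Pax5+/- against WT at adjusted p under 0.05. Dashed lines mark the shares over all genes, 4.21% higher and 3.23% lower; genes Pax5 represses reach the largest share of rises, and the DNA damage and oxidative phosphorylation lists hold no called member.

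Called genes were also neighbours in places. There were 14 runs of 3 or more adjacent tested genes called in a single direction. How many runs would arise if calls fell at random along the chromosomes was not tested. In the run of Tmem67, Rbm12b2 and Cibar1 on chromosome 4 all 3 rose, by 0.85 to 2.61, and all 3 held with the pairs averaged. Cibar1, a membrane-shaping protein of cilia, read 5.75, 5.18, 5.58 and 5.53 in WT and 8.67, 7.78, 8.28 and 7.76 in Pax5+/-. The adjacent cell-adhesion genes Pcdhb16 to Pcdhb20 all rose, by 1.23 to 1.61, with no call among them once the pairs were averaged. The other 17 beta protocadherins measured did not pass, where 7.44% of all genes were called. Whether probes of these related genes share targets was not tested. On chromosome 13 Carmil1, Cmah and Ripor2 rose, by 0.51 to 2.18. Of the 193 genes past 2-fold, 21 had an adjacent gene also past 2-fold.

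Over all 32851 promoters of the table the Pax5 core was found in 4.23%, and in 4.5% of the 19116 promoters of tested genes. It was in 4.24% of 826 promoters of genes that rose and in 6.53% of 689 promoters of genes that fell. Past 2-fold the shares were 2.38% of 126 and 4.69% of 64. The EBF1 word (TCCC and GGGA parted by 2 bases) stood in 1.69% of promoters of rising genes and 1.6% of falling genes. Its share was 1% in tested genes and 0.904% in all promoters. In the same order, the PU.1 word GAGGAAG stood in 12%, 13.6%, 13.1% and 13.6%, and the AP-1 word TGANTCA in 5.21%, 5.52%, 6.88% and 7.81%. The words were searched on both strands and are descriptions of letters, not of binding. Of the 32 genes of the naming rule, 29 had a promoter in the table and 1 of these, Edaradd, held the Pax5 core.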

How the data were processed

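RNA was extracted with TRIzol and hybridised to Affymetrix Mouse Gene 1.0 ST arrays, per the labels' protocols and the series' design text. The deposited values are log2 signals per transcript cluster, which the authors made with the Transcriptome Analysis Console 4.0.3 per that text. The sources used here do not state the background correction, normalization or summarization. The values (3.67 to 14.73, array medians 6.91 to 7.005) were used with no second normalization or filter. Depth does not apply to arrays, and the number of arrays limits the precision. Means of the 3 groups were fitted to all 12 arrays with limma 3.58.1 in R 4.3.3 (9 residual and 3.28 prior degrees of freedom), and the contrast of Pax5+/- and WT was adjusted by Benjamini-Hochberg over 23410 clusters with a symbol. Log2 changes are Pax5+/- minus WT, with moderated SEs; SDs are over 4 arrays. Clusters with several symbols (1621) were tested and not named, and 5534 with none were left out.

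The named genes are Pax5 and Cd72; the 15 largest rises and 15 largest falls called with every array and with close pairs averaged, with no overlap and no predicted names; up to 3 called rises and falls and 2 members that did not pass per list, with other called members named to complete a list's count; and the genes of the printed promoters. Members, lists (52 of families and pathways, 12 of markers), pairs and the naming rule were chosen with earlier results of these data known, so a list's count supports nothing by itself. Promoters were matched by Entrez identifier. Gene order came from RefSeq for 19856 genes. Tables and figures were made in Python 3.11.15 with pandas 2.3.3 and drawn with matplotlib 3.10.9. The pipeline was checked on simulated data. Alternatives are in the closing section.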

Additional observations from a re-analysis of the deposited data

Results flagged for a closer look

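In 88 groups of 4 arrays (32 named genes and 12 marker means, in both groups), 3 held an array far from the others; chance flags about 1 in 20 groups. Cd44 read 8.08 on WT array 7 against 7.99 to 8.00 on the other WT arrays. The mean of the neutrophil markers was 5.918 on WT array 5 against 5.874 to 5.876. The mean of the megakaryocyte markers was 5.687 on Pax5+/- array 1 against 5.813 to 5.820.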

How the results depend on the processing

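The count of 1749 called clusters moved to 1133 with the close pairs as a random block, to 282 with the pairs averaged, and to 34 with the pairs averaged and only the WT and Pax5+/- arrays in the fit, an alternative chosen after seeing the data. The count past 2-fold, 220, moved to 135 and 34 under the last pair of settings, which fit fewer samples. At the study's threshold, an unadjusted p under 0.05 with over 2-fold, 224 clusters passed. With quantile normalization, array medians made equal, dim clusters removed, clusters without a symbol added, a prior with trend, only 8 arrays, array weights or an adjusted p under 0.1, the count ran from 1174 to 2331. Without 1 array it ran from 1338 to 1959, and past 2-fold from 201 to 246. No called cluster changed sign in the settings refitted. The 30 largest changes, which were chosen for holding with the pairs averaged, kept their calls in every planned setting that tested them (the dim filter tested 28 of the 32 with Pax5 and Cd72), and Pax5 and Cd72 lost theirs with the pairs averaged; 24 of the 32 were lost with the pairs averaged and 8 arrays. Of all genes the text could name, 120 lost their call with the pairs averaged and 161 when only 8 arrays were then used; the count of called members moved by over 1.5 times in 52 of 64 lists, marker lists included, with the pairs averaged, and 9 of the other 12 held no call to begin with. No paired analysis was possible because the titles give WT and Pax5+/- arrays no shared number. Whether a close pair is 1 sample measured again was not tested; if so, each group holds 2 samples.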
